A study of Arabidopsis thaliana with 15 samples.

Results

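Internal start clusters are sites, deep inside Arabidopsis thaliana genes, at which RNA 5′ ends were mapped by a method that selects capped RNA. Cap analysis of gene expression (CAGE) is designed to count the capped 5′ ends of RNA by position. Neighbouring ends on 1 strand are joined into tag clusters (TCs). A TC was linked to a gene when the counts of a run of neighbouring TCs on 1 strand added up exactly to the count of that gene in all 15 libraries. In genes with at least 2 linked TCs, a TC was called internal when its midpoint lay more than 500 bp downstream of the midpoint of the most upstream linked TC, here called the first TC. There were 2310 internal TCs among 26677 TCs in all, and they lay in 1403 of 18934 genes. A further 2575 TCs lay within 500 bp of the first TC and are called near TCs. The first TCs of genes with several TCs numbered 3319, 15615 TCs were the single TC of their gene, and 2858 were linked to no gene.

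The study asked which starts are used when seedlings meet flg22, a short stretch of bacterial flagellin to which plants mount an immune response, and which of the resulting RNAs the nuclear exosome removes. Libraries of whole Col-0 seedlings, aged 14 days, were made from hen2-4 at 30 min, rrp4-2 at 30 min, wild type (wt) at 30 min, hen2-4 at 10 min and wt at 10 min after 3.3 µM flg22, with 3 libraries in each of the 5 groups. In hen2-4 a T-DNA interrupts HEN2, which encodes an RNA helicase of the nuclear exosome pathway, and rrp4-2 is a weak, hypomorphic allele of the exosome core subunit RRP4, so exosome function is reduced and not lost. Every group, wt included, received flg22, and no untreated library was used, so a change with time cannot be assigned to the peptide. Each library came from 5 µg of RNA of a pool of 10 seedlings, and the pools of a group were treated side by side in separate wells. In such bulk samples, fewer cells of a type and less RNA per cell cannot be told apart.

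Most genes of higher plants are transcribed from starts just upstream of the coding sequence, and a start farther downstream can yield an RNA that lacks the first exons and, where it is translated, a protein that lacks its N-terminal end. Capped RNA can also arise inside genes without coding for anything. The paper checked chosen starts with a second method, because a damaged site inside an RNA could also give CAGE signal. It also found that most alternative TCs of untreated seedlings followed a pattern known from transcriptional noise. The cap was not checked here for the internal TCs, of which 99 lay on organelle genomes. The nuclear exosome degrades RNA from its 3′ end, with helicases such as HEN2 as cofactors in the nucleoplasm, and is known in plants for removing short-lived RNAs that ordinary transcript profiling rarely detects.

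The sequences of 9 genes are shown because their internal TCs carry the results below, on changes with time (GH3.9, HSFA7A, CDF1, AFP1, SUVR5) and in the mutants (AT5G19480, IDD4, FAD5, ATIM). They were read from the RefSeq assembly TAIR10.1 over GH3.9 (chr2:19560863-19560929, minus strand), HSFA7A (chr3:19265902-19266109, plus strand), CDF1 (chr5:25070129-25070380, minus strand), AFP1 (chr1:26040140-26040238, plus strand), SUVR5 (chr2:10101152-10101299, plus strand), AT5G19480 (chr5:6572547-6572638, plus strand), IDD4 (chr2:519589-519690, minus strand), FAD5 (chr3:5360305-5360480, plus strand) and ATIM (chr5:21459058-21459230, minus strand). They run 5′ to 3′ on the strand of the gene. Capitals mark the bases of the TC, and lower case marks the bases before it. In CDF1, IDD4 and SUVR5 the capitals mark a pair of neighbouring TCs.
GH3.9: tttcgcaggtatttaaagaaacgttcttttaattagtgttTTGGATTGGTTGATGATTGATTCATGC
HSFA7A: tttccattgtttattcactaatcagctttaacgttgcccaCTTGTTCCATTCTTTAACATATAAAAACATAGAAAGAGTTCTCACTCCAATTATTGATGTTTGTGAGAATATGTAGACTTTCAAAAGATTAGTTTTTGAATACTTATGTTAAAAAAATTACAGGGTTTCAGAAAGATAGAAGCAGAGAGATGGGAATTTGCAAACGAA
CDF1: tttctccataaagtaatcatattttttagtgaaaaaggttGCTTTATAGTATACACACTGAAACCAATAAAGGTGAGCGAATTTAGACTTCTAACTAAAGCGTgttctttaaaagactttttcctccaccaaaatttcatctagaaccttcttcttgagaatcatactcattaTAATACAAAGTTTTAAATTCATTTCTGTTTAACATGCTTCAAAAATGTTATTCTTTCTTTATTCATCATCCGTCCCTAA
AFP1: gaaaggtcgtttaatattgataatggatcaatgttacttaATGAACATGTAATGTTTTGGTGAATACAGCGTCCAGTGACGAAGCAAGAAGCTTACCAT
SUVR5: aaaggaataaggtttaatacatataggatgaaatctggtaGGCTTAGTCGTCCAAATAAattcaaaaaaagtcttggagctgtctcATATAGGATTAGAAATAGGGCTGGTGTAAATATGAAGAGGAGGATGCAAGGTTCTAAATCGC
AT5G19480: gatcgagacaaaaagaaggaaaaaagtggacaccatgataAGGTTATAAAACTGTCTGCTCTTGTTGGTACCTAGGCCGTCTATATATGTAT
IDD4: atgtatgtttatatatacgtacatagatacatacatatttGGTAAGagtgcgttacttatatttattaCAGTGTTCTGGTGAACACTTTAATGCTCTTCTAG
FAD5: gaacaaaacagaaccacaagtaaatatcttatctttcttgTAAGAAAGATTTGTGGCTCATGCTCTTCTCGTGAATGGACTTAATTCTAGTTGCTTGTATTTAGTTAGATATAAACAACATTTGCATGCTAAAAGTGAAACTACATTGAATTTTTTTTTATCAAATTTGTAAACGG
ATIM: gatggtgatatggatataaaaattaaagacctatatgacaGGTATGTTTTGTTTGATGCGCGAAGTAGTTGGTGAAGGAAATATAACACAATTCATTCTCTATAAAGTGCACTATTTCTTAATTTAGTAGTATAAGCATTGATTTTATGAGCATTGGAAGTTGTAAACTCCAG

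The internal TCs lay 500.5 to 9175.5 bp downstream of the first TC, with a median of 1081 bp. A single internal TC was found in 969 genes and 2 or more in 434, with at most 11 in a gene. On the nuclear chromosomes there were 2211 internal TCs, on the chloroplast genome 85 and on the mitochondrial genome 14. Of the 2204 nuclear ones with an annotated gene, 1652 (75%) lay in coding exons, 247 (11.2%) in 5′ UTRs, 226 (10.3%) in introns, 41 (1.86%) in 3′ UTRs, 26 (1.18%) in exons of non-coding transcripts and 12 (0.544%) outside the annotated gene. An annotated transcript start of the same gene lay within 100 bp of 73 internal TCs (3.31%). This was the case for 53 of the 247 in 5′ UTRs (21.5%) and 12 of the 226 in introns (5.31%), but for 7 of the 1652 in coding exons (0.424%). The annotation therefore holds a start for few of the internal TCs, and most of those it holds lie in 5′ UTRs.

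The clusters were narrower than first TCs, with a median width of 94 bp against 127 bp, but not than near TCs, with 89 bp. The TATA box is a short core promoter motif that lies just upstream of many plant transcription starts. The letters TATAAA stood on the TC's strand in the 100 bp upstream of 6.24% of nuclear internal TCs, against 11.8% of near, 16.6% of first and 18.7% of single TCs (13.5%, 18.3%, 24.2% and 26.8% with both strands). Among internal TCs this share was 11.9% in introns and 4.72% in coding exons. The letters TATATA, which read the same on both strands and can overlap TATAAA, stood upstream of 8.28% of internal, 14.7% of near, 14.8% of first and 16.4% of single TCs. Of the sequences shown, only that of ATIM had TATAAA and only that of IDD4 had TATATA in this window. The median GC content of the window was 37% for internal TCs, 37% for near TCs and 32% for first TCs. These are matches of letters, and binding was not measured. A TC on the opposite strand lay within 400 bp upstream of 4.98% of internal TCs, against 4.26% of near TCs and 8.47% of first TCs.

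For 2175 internal TCs the host gene had a coding sequence. None of it lay upstream of 209 TCs (9.61%), less than 50% of its length lay upstream of 1346 (61.9%), 50% or more but not all upstream of 576 (26.5%) and all of it upstream of 44 (2.02%). The next in-frame ATG of the annotated coding sequence downstream of the TC's midpoint was looked up as a description, and translation was not measured. Such an ATG was found for 1580 of 1652 TCs in coding exons (95.6%), where a median of 53.0% of the codons remained, and for 209 of 224 in introns (93.3%), where 56.6% remained. All 247 TCs in 5′ UTRs had one, with a median of 100% of the codons left. The share left was 79.5% at the CDF1 TC, 56.6% at IDD4, 47.4% at HSFA7A, 34.0% at SUVR5 and 24.9% at AFP1. It was 15.4% at GH3.9, 12.9% at ATIM, 9.16% at FAD5 and 1.93% at AT5G19480.

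Most internal TCs were weak. Levels are given as counts per 1e6 tags (CPM) on library sizes scaled with TMM factors, and as the share of the gene's tags, each as mean ± SD of 3 libraries where an error is shown. The median internal TC stood at 1.00 CPM in hen2-4 at 30 min, 1.15 CPM in rrp4-2 at 30 min, 1.15 CPM in wt at 30 min, 1.16 CPM in hen2-4 at 10 min and 1.14 CPM in wt at 10 min. The median first TC of a gene stood between 8.84 and 10.0 CPM in the same groups. The median share of an internal TC was 0.946% in hen2-4, 1.04% in rrp4-2 and 1.02% in wt at 30 min, and 1.40% in hen2-4 and 1.25% in wt at 10 min. Over all libraries, the mean share was under 1% for 1078 internal TCs (46.7%) and 50% or more for 135 (5.84%). A share of at least 10% in at least 3 libraries was reached by 546 (23.6%). These were 183 of those in 5′ UTRs (74.1%), 116 of those in introns (51.3%), 17 of those in 3′ UTRs (41.5%) and 150 of those in coding exons (9.08%). Genes with many internal TCs were strongly expressed, with a median of 415 CPM in wt at 30 min for genes with at least 5 internal TCs, 153 CPM for those with 2 to 4 and 40.4 CPM for those with 1. Genes with 2 or more TCs but none internal had 14.3 CPM, and those with 1 TC 11 CPM.

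All internal TCs together took 1.34 ± 0.218% of the tags of a library in hen2-4 at 30 min, 1.68 ± 0.156% in rrp4-2 at 30 min, 1.35 ± 0.181% in wt at 30 min, 1.48 ± 0.134% in hen2-4 at 10 min and 1.42 ± 0.256% in wt at 10 min. A part of this was 1 chloroplast TC, which averaged 3025 to 4329 CPM over the groups. At 30 min, all internal TCs of the organelle genomes took 0.790 ± 0.204% in rrp4-2 and 0.554 ± 0.109% in wt. Nuclear internal TCs took 0.894 ± 0.0575% and 0.792 ± 0.109%, and the libraries overlapped. Those in introns took 0.0672 ± 0.00864% in hen2-4 and 0.0751 ± 0.00120% in rrp4-2 against 0.0557 ± 0.00655% in wt at 30 min, and 0.0850 ± 0.00170% in hen2-4 against 0.0630 ± 0.00537% in wt at 10 min. The intron shares of rrp4-2 (0.0739% to 0.0763%) lay above those of wt at 30 min (0.0515% to 0.0633%), and those of hen2-4 at 10 min (0.0832% to 0.0866%) above those of wt at 10 min (0.0569% to 0.0670%). The libraries of hen2-4 at 30 min (0.0587% to 0.0760%) overlapped those of wt. With 3 libraries against 3, an exact permutation test cannot give a p below 0.10, so no test of these shares is given.

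The members with the highest shares were in effect the main start of their gene. The 5 with the highest mean share, among genes of at least 10 CPM, were in LBD37, AT2G27080, CA2, AT4G01400 and AT5G06980. In LBD37, a regulator of the nitrogen response, the TC in the 5′ UTR (chr5:26905371-26905615, minus strand) held 99.1 ± 0.49% of the gene's tags in hen2-4, 98.9 ± 0.174% in rrp4-2 and 100% in every library of wt at 30 min. In CA2, a carbonic anhydrase, the TC in a coding exon of the annotated model (chr5:4759038-4759190, plus strand) stood at 622 ± 264 CPM in hen2-4, 711 ± 191 CPM in rrp4-2 and 569 ± 245 CPM in wt at 30 min, and at 759 ± 265 CPM in hen2-4 and 708 ± 102 CPM in wt at 10 min. That of AT4G01400 (chr4:575574-575727, minus strand) lay outside the annotated gene. That of AT5G06980 (chr5:2167488-2167862, plus strand), in a 5′ UTR, was lower at 30 than at 10 min in both genotypes. It stood at 10.3, 13.2 and 11.9 CPM at 30 min against 34.9, 42.2 and 29.8 CPM at 10 min in wt (log2 -1.59 ± 0.17, adjusted p = 4.1e-06, edgeR), and at 10.8, 11.1 and 12.6 CPM against 41.2, 43.5 and 35.4 CPM in hen2-4 (log2 -1.80 ± 0.17, adjusted p = 1.7e-06).

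The libraries held 14.1 to 25.1 M tags in TCs (M for 1e6). HEN2 stood at 6.24 ± 1.94 CPM at 30 min and 9.44 ± 0.701 CPM at 10 min in hen2-4, 40.3 ± 5.34 CPM in rrp4-2, and 44.5 ± 11 and 42.5 ± 6.67 CPM in wt at 30 and 10 min, while the level of RRP4 does not check the rrp4-2 allele. Across TCs, the log2 CPM of replicates of a group correlated with r between 0.965 and 0.989, and all differed by more than counting noise. The third wt library at 30 min stood apart, with r of 0.965 and 0.966 and chi-square values of 73.7 and 76.0 per degree of freedom against the other wt libraries, where other pairs gave 12.1 to 35.5. Totals, counts by position and overlaps are given with and without it. The seedlings held markers of shoot and root in every library. The sum of the shoot genes RBCS1A, CAB1 and LHCB2.1 ranged over 5413 to 7573 CPM in hen2-4 and 5927 to 6769 CPM in rrp4-2 against 7620 to 10261 CPM in wt at 30 min, and over 6717 to 9162 CPM in hen2-4 against 9076 to 11815 CPM in wt at 10 min. That of the root genes CASP1, PIN2, EXPA7 and COBL9 ranged over 35.6 to 51.4, 25.8 to 40.9 and 30.1 to 72.3 CPM at 30 min and over 47.9 to 56.7 and 43.0 to 78.6 CPM at 10 min in the same order. The shoot sum was thus lower in the mutants than in wt and lower at 30 than at 10 min, with overlap between some groups. LHCB2.1 went the other way between genotypes, with a mean of 407 CPM in hen2-4 against 287 CPM in wt at 10 min. At 30 min its mean was 193 CPM in hen2-4 and 290 CPM in rrp4-2 against 172 CPM in wt. The part of these markers in the results was not tested.

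The mutants were compared with wt to ask which internal starts gave more RNA when the exosome was impaired. A TC was called when edgeR's quasi-likelihood test over all 26504 TCs tested, which include 2294 internal ones, gave an adjusted p no higher than 0.05 together with a log2 fold change of 1 or more in either direction. In hen2-4 at 10 min, 75 internal TCs were called higher (3.27%, where 5.11% of all TCs tested were called higher) and 5 lower (0.268% of all TCs). In hen2-4 at 30 min, 53 were called higher (2.31%, against 4.75% of all TCs) and 5 lower (0.313%). In rrp4-2 at 30 min, 98 were called higher (4.27%, against 6.59%) and 19 lower (1.24%). The rate over all TCs was carried by the unlinked TCs, of which 34.8%, 34.1% and 42% were called higher in hen2-4 at 10 min, hen2-4 at 30 min and rrp4-2. Among TCs linked to genes, the rates in the same order were 1.65%, 1.14% and 2.90% for near TCs, 1.97%, 1.42% and 2.60% for first TCs and 1.29%, 1.15% and 2.03% for single TCs. Internal TCs were thus called higher less often than all TCs and more often than each of these other linked sets, as a description of the counts. Of the 545 tested internal TCs that reached a share of 10% in 3 libraries, 8.07%, 6.97% and 11.4% were higher. Without the third wt library at 30 min, 53 were higher and 10 lower in hen2-4 at 30 min, and 77 higher and 19 lower in rrp4-2. The total of the 10 min comparison was 47 without wt replicate 1. The comparisons at 30 min share the wt libraries.

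The rate of calls differed between positions inside the gene. Of 224 internal TCs tested in introns, 40 were higher in hen2-4 at 10 min (17.9%), 25 in hen2-4 at 30 min (11.2%) and 45 in rrp4-2 at 30 min (20.1%), with a median log2 difference of 0.38, 0.28 and 0.38 over all 224. Of 1641 in coding exons, 10, 8 and 22 were higher (0.609%, 0.488% and 1.34%), with medians of −0.10, −0.31 and −0.15. The medians over all TCs tested were −0.02, −0.04 and −0.03. In 3′ UTRs 10, 4 and 10 of 40 were higher, in 5′ UTRs 8, 13 and 15 of 245, and in exons of non-coding transcripts 6, 2 and 5 of 26. No internal TC of the organelle genomes was called higher in these comparisons. The authors' removal of low clusters can favour higher calls among TCs that are weak in wt, which was not tested. The intron count at 10 min was 20 without wt replicate 1 and 26 without wt replicate 3. With only the groups compared in the fit, it was 14 in hen2-4 at 30 min and 27 in rrp4-2, and the totals called in either direction were 31 in place of 58 and 62 in place of 117. Without the third wt library at 30 min, introns held 41, 23 and 33 higher calls in the order above, coding exons 12, 11 and 16, 3′ UTRs 10, 3 and 7, 5′ UTRs 13, 13 and 15, and exons of non-coding transcripts 6, 2 and 4.

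**Figure D1:**
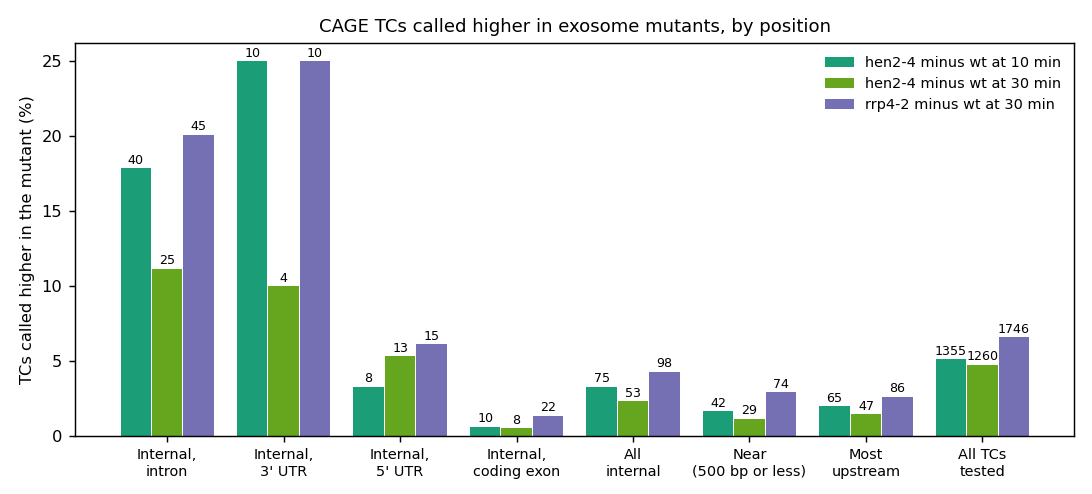
Percent of TCs tested that edgeR called higher in a mutant than in wt, by position (horizontal axis), for hen2-4 at 10 min, hen2-4 at 30 min and rrp4-2 at 30 min (bars, with the number of TCs above each). The bars of internal TCs in introns reach 17.9%, 11.2% and 20.1% and those in coding exons 0.609%, 0.488% and 1.34%, beside 5.11%, 4.75% and 6.59% of all TCs tested.

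The first TC of the host gene was in most cases not called with the internal one. It was called higher too for 8 of the 75 internal TCs higher in hen2-4 at 10 min (10.7%, where 1.97% of all first TCs were higher), for 0 of the 53 at 30 min (1.42% of all first TCs) and for 4 of the 98 higher in rrp4-2 (4.08%, against 2.60%). Without the third wt library at 30 min these were 8 of 83, 2 of 53 and 3 of 77. For those in introns it was 1 of 40, 0 of 25 and 1 of 45. For the 98 in rrp4-2 the median log2 difference was 1.87 at the internal TC and −0.01 at the first TC. The comparison of hen2-4 with wt at 10 min and that of rrp4-2 with wt at 30 min share no library. They had 48 higher internal TCs in common, 64% of the 75 and 49.0% of the 98, where all TCs gave 76.5% and 59.4%. In introns the overlap was 27, or 67.5% of 40 and 60% of 45, and in coding exons it was 6, or 60% of 10 and 27.3% of 22. Without the third wt library at 30 min, 44 were in common, 53.0% of 83 and 57.1% of 77, where all TCs gave 67.1% and 62.8%, and in introns 21, 51.2% of 41 and 63.6% of 33.

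Among the intronic members, the TC in the gene of a Mediator subunit, AT5G19480 (chr5:6572587-6572638, plus strand, 1077 bp from the first TC), was low in all wt libraries. It stood at 3.33, 2.2 and 1.91 CPM in hen2-4 and 2.64, 2.99 and 3.18 CPM in rrp4-2 at 30 min, against 0.415, 0.337 and 0.277 CPM in wt, and at 2.49, 3.51 and 4.09 CPM in hen2-4 against 0.24, 0.0455 and 0.582 CPM in wt at 10 min. The mutant and wt libraries did not overlap at either time, which at 10 min was a condition for naming this TC. The log2 difference was 2.81 ± 0.47, adjusted p = 0.00105 in hen2-4 at 30 min, 3.07 ± 0.47, adjusted p = 0.00034 in rrp4-2 and 3.63 ± 0.48, adjusted p = 0.000144 in hen2-4 at 10 min. The TC held 22.7 ± 6.3% and 24.2 ± 2.31% of the gene's tags in hen2-4 and rrp4-2 against 3.43 ± 0.718% in wt at 30 min, while the first TC had log2 differences of -0.30 (adjusted p = 0.451) and -0.21 (adjusted p = 0.544).

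IDD4 encodes a zinc finger transcription factor of the indeterminate-domain family and held a pair of neighbouring intronic TCs. The downstream one (chr2:519589-519622, minus strand) stood at 0.865, 0.899 and 0.312 CPM in hen2-4 and 1.12, 0.724 and 1.16 CPM in rrp4-2 against 0.0519, 0.112 and 0.0555 CPM in wt at 30 min (adjusted p = 0.00814 and adjusted p = 0.00125). At 10 min it stood at 1.07, 1.59 and 1.18 CPM in hen2-4 against 0.0801, 0 and 0.129 CPM in wt (adjusted p = 0.000472, edgeR). No wt library held more than 3 of its tags, so no fold is given. The upstream one (chr2:519645-519650, minus strand) stood at 1.02, 1.58 and 2.12 CPM in rrp4-2 against 0.26, 0.112 and 0 CPM in wt (log2 3.58 ± 0.65, adjusted p = 0.00166), and its calls in hen2-4 were each lost in some of the 15 fits that leave out 1 library each (2 of 15 at 10 min, 1 of 15 at 30 min). Of the first TC of IDD4, which stood at 37 ± 3.35 CPM in hen2-4 and 18.8 ± 3.5 CPM in wt at 10 min, the change was under the limit of 1 (log2 0.98 (adjusted p = 0.0186)).

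BXL1, a cell-wall xylosidase, had an intronic TC (chr5:20015821-20015944, minus strand) that was near 0 in wt at 30 min. It stood at 0.732, 0.989 and 0.801 CPM in hen2-4 and 1.17, 2.72 and 1.74 CPM in rrp4-2 against 0.0519, 0.0562 and 0.0555 CPM in wt (adjusted p = 0.00199 and adjusted p = 7.9e-05, edgeR, no fold since wt held at most 1 tag per library). It was a small fraction of this strongly expressed gene, at 0.444 ± 0.0961% of the gene's tags in rrp4-2. FAD5, a chloroplast fatty acid desaturase, had an intronic TC (chr3:5360345-5360480, plus strand) at 1.26, 0.764 and 0.935 CPM in hen2-4 and 2.18, 1.81 and 2.27 CPM in rrp4-2 against 0.104, 0.337 and 0.0555 CPM in wt at 30 min. The log2 difference was 2.53 ± 0.49, adjusted p = 0.00345 in hen2-4 and 3.62 ± 0.46, adjusted p = 6.7e-05 in rrp4-2, and at 10 min 1.54 ± 0.35, adjusted p = 0.0127 in hen2-4, a call lost in 2 of 15 cases. The first TC of FAD5 stood at 68.5 ± 8.25 CPM, 73.6 ± 13.6 CPM and 87.5 ± 8.09 CPM in hen2-4, rrp4-2 and wt at 30 min and was not called.

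ATIM, a gene of the TIMELESS family of replication and chromosome proteins, differed from the others in that its intronic TC (chr5:21459058-21459190, minus strand, 4144.5 bp from the first TC) held most of the gene's tags. The share was 85.2 ± 7.3% in hen2-4, 96.4 ± 1.37% in rrp4-2 and 56.8 ± 19.5% in wt at 30 min. Its level stood at 4.72, 3.15 and 3.16 CPM in hen2-4 and 14.2, 30 and 17.6 CPM in rrp4-2 against 1.51, 1.85 and 0.333 CPM in wt at 30 min, and at 10.8, 11.8 and 10.8 CPM in hen2-4 against 3.52, 4.37 and 5.24 CPM in wt at 10 min. The level in rrp4-2 exceeded that in wt by log2 4.06 ± 0.42, adjusted p = 8.5e-06, and this call held without any 1 library. The calls in hen2-4 (log2 1.56 ± 0.41 at 30 min and 1.36 ± 0.37 at 10 min) were lost without 1 of several libraries, in 5 and 6 of 15 cases. The TC of AT1G28090, of the poly(A) polymerase family, was higher in hen2-4 at 30 min, at 1.4, 3.1 and 2.14 CPM against 0.0519, 0.168 and 0.666 CPM in wt (log2 2.90 ± 0.71, adjusted p = 0.0196), and stood at 0.254, 0.362 and 0.772 CPM in rrp4-2. That call was lost in 3 of 15 cases. ACA11, a Ca2+ pump of the vacuolar membrane, had an intronic TC at 1.13, 1.35 and 1.14 CPM in hen2-4 against 0, 0.091 and 0.194 CPM in wt at 10 min (adjusted p = 0.00465, edgeR), where wt held at most 3 tags per library.

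**Figure D2:**
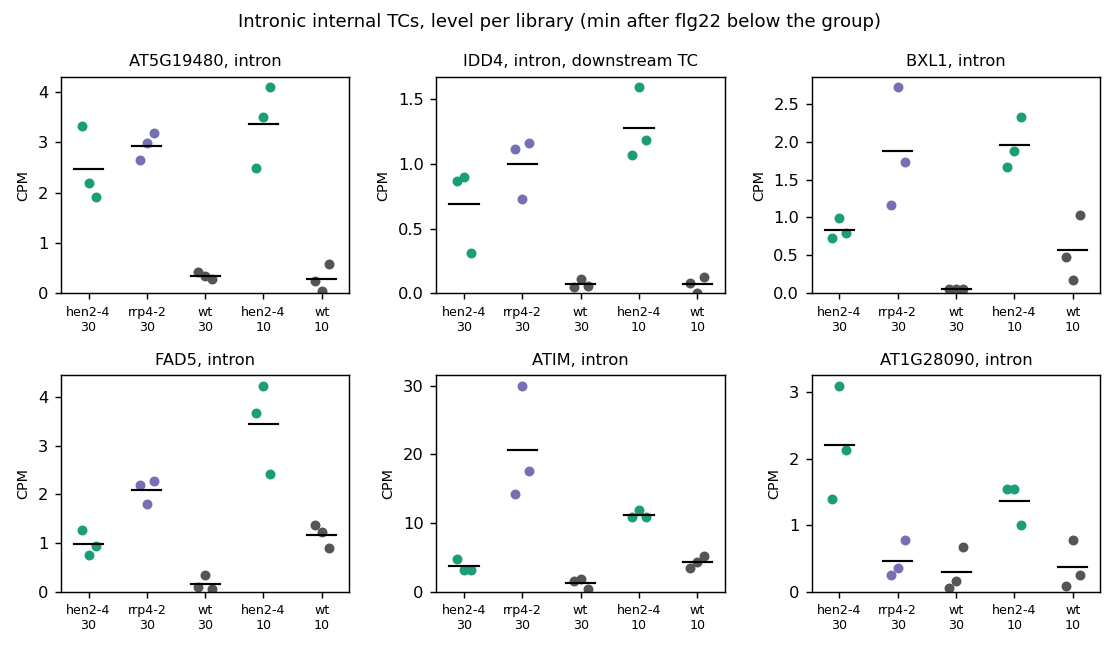
CPM per library (points) and group mean (lines) of intronic internal TCs in AT5G19480, IDD4 (downstream TC), BXL1, FAD5, ATIM and AT1G28090, with genotype and min after flg22 below each group. In AT5G19480 every mutant library lies at or above 1.91 CPM and every wt library at or below 0.582 CPM, while in ATIM the libraries of rrp4-2 reach 30.0 CPM.

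In 3′ UTRs, the TC of AT5G13560, annotated as a structural maintenance of chromosomes protein, stood highest in the mutants among those named (chr5:4361235-4361401, minus strand, 5053.5 bp from the first TC). It stood at 20.8, 18.4 and 22.8 CPM in hen2-4 and 34.1, 16 and 23 CPM in rrp4-2 against 0.727, 1.12 and 0.721 CPM in wt at 30 min, and at 18.1, 15.1 and 17 CPM in hen2-4 against 0.681, 1.55 and 0.971 CPM in wt at 10 min. Every mutant library lay above every wt library, which was a condition for naming this TC. The log2 difference was 4.59 ± 0.33, adjusted p = 3.2e-07 in hen2-4 and 4.82 ± 0.33, adjusted p = 1.6e-07 in rrp4-2 at 30 min, and 3.97 ± 0.32, adjusted p = 1.1e-06 in hen2-4 at 10 min. The share of the gene's tags was 28.3 ± 1.78% in hen2-4 and 31.5 ± 9.98% in rrp4-2 against 1.36 ± 0.436% in wt. The first TC was not called, with log2 differences of -0.25 (adjusted p = 0.431) and -0.27 (adjusted p = 0.268).

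IAA14, a repressor of auxin signalling, had a TC in its 3′ UTR (chr4:8347805-8347886, minus strand) with 0 tags in every wt library. It stood at 1.02, 1.22 and 1.5 CPM in rrp4-2 at 30 min (adjusted p = 0.00151) and at 1.07, 0.0963 and 0.50 CPM in hen2-4 at 10 min (adjusted p = 0.010), where a floor of 3 tags in each wt library is a group mean of 0.164 CPM at 30 min (0.156 to 0.168 CPM in single libraries) and 0.150 CPM at 10 min (0.120 to 0.194 CPM). The level was thus at least 7.61-fold higher in rrp4-2 than in wt at 30 min, with this group mean of the floor. At 10 min the hen2-4 library at 0.0963 CPM lay below the floor, so no fold is given there. In hen2-4 at 30 min it stood at 0.133, 0.18 and 0.267 CPM and was not called. The authors removed low clusters, so a TC with 0 tags in wt entered only through other libraries. Its rise over wt is therefore partly set by that filter. AT5G44060, an embryo sac development arrest protein, had a TC in its 3′ UTR (chr5:17731734-17731820, plus strand) at 5.1, 2.41 and 1.77 CPM in hen2-4 against 0.040, 0.091 and 0 CPM in wt at 10 min (adjusted p = 0.000191). At 30 min it stood at 0.813, 0.589 and 0.289 CPM in rrp4-2 against 0 tags in wt (adjusted p = 0.0036), at least 3.45-fold higher.

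In coding exons, AT4G10750 and AT1G78750 were higher in both mutants. AT4G10750, annotated in the phosphoenolpyruvate carboxylase family, had a TC (chr4:6619488-6619574, plus strand) at 10.2, 14.2 and 13.5 CPM in hen2-4 and 4.52, 4.3 and 5.93 CPM in rrp4-2 against 0.935, 1.12 and 1.89 CPM in wt at 30 min (log2 3.27 ± 0.27, adjusted p = 1.2e-06, and 1.90 ± 0.27, adjusted p = 0.000158). At 10 min it stood at 11.7, 10.6 and 15.4 CPM in hen2-4 against 2.2, 2.46 and 2.27 CPM in wt (log2 2.44 ± 0.25, adjusted p = 1.4e-05). AT1G78750, an F-box gene, had a TC (chr1:29613436-29613581, minus strand) at 3.53, 4.9 and 5.16 CPM in hen2-4 and 2.95, 1.27 and 2.46 CPM in rrp4-2 against 0.208, 0.225 and 0.333 CPM in wt (log2 4.13 ± 0.45, adjusted p = 2.0e-05, and 3.09 ± 0.46, adjusted p = 0.000266). Its share of the gene's tags was 59.9 ± 9.89% in hen2-4 and 30.1 ± 11% in rrp4-2 against 8.96 ± 2.78% in wt. Both calls held without any 1 library. AT5G39080, an acyltransferase gene, was called in rrp4-2 alone of the mutants, at 0.863, 1.31 and 0.868 CPM against 0, 0.225 and 0 CPM in wt (log2 3.69 ± 0.75, adjusted p = 0.00384), and stood at 0.466, 0.539 and 0.223 CPM in hen2-4 at 30 min. The difference between the mutants was not called.

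The internal TCs named for the largest falls in the mutants lay in coding exons, and that of CDF1, lower in rrp4-2, is described with the changes over time. Of the 19 lower calls in rrp4-2, 13 lay in coding exons, as did 1641 of the 2294 internal TCs tested. The rate of lower calls was 0.792% in coding exons and 0.828% over all internal TCs. The 1 in a 3′ UTR had log2 -4.33, a larger fall than those named, and did not meet the rule for naming. AT1G56660, annotated as a MAEBL domain protein, had a TC (chr1:21239087-21239541, plus strand) at 1.13, 1.75 and 2.85 CPM in hen2-4 and 2.23, 1.86 and 0.964 CPM in rrp4-2 against 8.1, 6.01 and 11.9 CPM in wt at 30 min. The log2 difference was -2.16 ± 0.36, adjusted p = 0.00104 in hen2-4 and -2.36 ± 0.36, adjusted p = 0.000378 in rrp4-2. The libraries did not overlap, which was a condition for naming this TC. At 10 min the TC of AT2G22795, an uncharacterized protein, stood at 0.771, 1.01 and 1.05 CPM in hen2-4 against 3.92, 2.59 and 7.44 CPM in wt (log2 -2.28 ± 0.42, adjusted p = 0.00218). Both genes kept their calls without any 1 library. The other lower calls named for the largest falls depended on single libraries: those of UGT73B1 in hen2-4 at 10 min and AT5G06110 in hen2-4 at 30 min were lost in 12 of 15 cases each, those of AT5G55660 and AT1G29470 in 2 each, and those of BGLU21 and VAB2 in rrp4-2 in 3 each.

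Use within the gene asks whether a TC moved differently from the other TCs of its gene, tested with diffSplice of limma on 8122 TCs, 2292 of them internal. In hen2-4 at 10 min the use of 45 internal TCs was called higher (1.96%, against 0.948% of all TCs tested) and of 8 lower (0.837%). In hen2-4 at 30 min 23 were higher (1.00%, against 0.431%) and 4 lower (0.394%), and in rrp4-2 46 were higher (2.01%, against 0.96%) and 7 lower (0.837%). Of the 224 in introns, 28, 10 and 19 were higher. The counts depended on the libraries. The total of hen2-4 at 10 min was 23, 28 and 35 without hen2-4 replicates 1, 2 and 3 and 12, 15 and 20 without wt replicates 1, 2 and 3, and that of hen2-4 at 30 min was 17 without hen2-4 replicate 2, 12 and 16 without wt replicates 1 and 2, and 24 without wt replicate 3. For rrp4-2, where the total was 53, it was 36 without wt replicate 1 at 30 min and 36 without wt replicate 3.

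In several genes the use of the internal TC was called where its level was not and the first TC moved. HEI10, which acts in meiotic crossing over, was the clearest of these. Its TC in the 5′ UTR (chr1:19964246-19964364, plus strand) stood at 1.93, 2.97 and 2.23 CPM in hen2-4, 1.73, 3.3 and 2.41 CPM in rrp4-2 and 1.92, 1.12 and 0.998 CPM in wt at 30 min. The first TC stood at 0 CPM in every library of hen2-4, 1.04 ± 0.507 CPM in rrp4-2 and 4.09 ± 1.92 CPM in wt. HEI10 had 3 TCs, so the first TC was not its only other start. The share and the test of use also take in the third, whose level is not given. The internal share was 96.4 ± 5.04% in hen2-4 and 40.5 ± 17% in rrp4-2 against 9.37 ± 4.54% in wt at 30 min, and 98.2 ± 3.12% in hen2-4 against 14.7 ± 0.583% in wt at 10 min. The use was called higher in hen2-4 at 30 min (adjusted p = 1.6e-06) and at 10 min (adjusted p = 0.000111, diffSplice), and these calls held without any 1 library. No log2 value of use is given because the first TC had at most 1 tag in any library of hen2-4.

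In ACC2 and LBD37 the use was lower where the first TC was called higher. In ACC2, an acetyl-CoA carboxylase, the intronic TC (chr1:13549801-13549950, plus strand) held 18.4 ± 4.5% of the tags in hen2-4 and 7.46 ± 2.91% in rrp4-2 against 58.1 ± 30.5% in wt at 30 min. The first TC stood at 5.53 ± 1.77 CPM in hen2-4, 16.2 ± 2.08 CPM in rrp4-2 and 1.02 ± 0.994 CPM in wt, and the internal TC at 1.31 ± 0.302 CPM, 1.35 ± 0.393 CPM and 1.14 ± 0.416 CPM. The use differed by log2 -4.13 ± 0.57, adjusted p = 1.1e-05 in rrp4-2 (diffSplice). In LBD37 the use was called lower in rrp4-2 (adjusted p = 0.00151, diffSplice), with the first TC at 0.683 ± 0.128 CPM in rrp4-2 and at 0 tags in wt. The lower use at ESP, which acts in glucosinolate breakdown, in hen2-4 at 10 min was lost in 4 of 15 cases, and the higher use at HOL2 in rrp4-2 in 11 of 15.

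Between rrp4-2 and hen2-4 at 30 min, 4 internal TCs were called higher in rrp4-2 (0.155% of all TCs tested) and 1 lower (0.102%), and the use of 2 was called higher (0.0369%) and of 2 lower (0.0492%). The total of 5 was 2, 0 and 1 without hen2-4 replicates 1, 2 and 3, 3 and 2 without rrp4-2 replicates 1 and 2, and 13 without wt replicate 3, which enters only the shared estimate of spread. The total for use, 4, lay between 1 and 7 without 1 library, with 7 without wt replicate 3. The clearest member was in the 3′ UTR of AT3G56210, an ARM repeat protein (chr3:20853676-20853692, minus strand), at 8.89, 9.42 and 8.83 CPM in rrp4-2 against 0.931, 0.944 and 1.34 CPM in hen2-4 (log2 3.06 ± 0.46, adjusted p = 0.0079), with 1.97, 1.91 and 5.32 CPM in wt. Its share was 29.9 ± 0.351% in rrp4-2 against 3.74 ± 0.516% in hen2-4, and the change of use (log2 3.42 ± 0.42, adjusted p = 1.9e-05, diffSplice) held without any 1 library, whereas the level call was lost without hen2-4 replicate 1 or 2. ATIM was higher in rrp4-2 than in hen2-4 by log2 2.5 ± 0.38, adjusted p = 0.00804, a call lost without hen2-4 replicate 2 or 3. AT4G10750 was lower by log2 -1.37 ± 0.24, adjusted p = 0.0224, a call lost in 4 of 15 cases. PROT2, a proline transporter, had a TC in the 5′ UTR at 1.63, 1.81 and 1.78 CPM in rrp4-2 against 0.532, 0.629 and 0.267 CPM in hen2-4 (log2 1.87 ± 0.36, adjusted p = 0.0397), lost in 10 of 15 cases, and against 0.312, 0.393 and 0.333 CPM in wt (log2 2.31 ± 0.38, adjusted p = 0.000672), kept without any 1 library.

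The comparison of 30 with 10 min asked which internal starts changed early after treatment. In wt, 250 internal TCs were called higher at 30 min (10.9%, where 8.25% of all TCs tested were higher) and 96 lower (4.18%, against 4.36%). In hen2-4, 208 were higher (9.07%, against 7.29%) and 212 lower (9.24%, against 6.32%). Library sizes without TMM factors changed this split. They moved the median log2 change of all TCs to −0.28 in wt and −0.29 in hen2-4, against −0.02 in each with TMM. In wt 215 were then higher and 199 lower, and in hen2-4 the numbers were 176 and 373, so a count of rises or falls is relative to the TMM scaling. Without the third wt library at 30 min, 206 were higher and 78 lower in wt. The total in hen2-4 was 261 without hen2-4 replicate 2 at 10 min.

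Most of the rises lay in coding exons, as did 1641 of the 2294 internal TCs tested. Of those in coding exons 11.9% were higher and 2.32% lower in wt, of those in introns 9.82% and 12.9% and of those in 5′ UTRs 8.98% and 7.76%, where all internal TCs gave 10.9% and 4.18%. The rate of rises in coding exons was thus close to that of internal TCs as a whole. In wt, 195 of 1641 in coding exons were higher and 38 lower, 22 and 29 of 224 in introns, 22 and 19 of 245 in 5′ UTRs, 2 and 4 of 40 in 3′ UTRs, and 9 and 4 of 26 in exons of non-coding transcripts. In hen2-4, 167 were higher and 132 lower in coding exons, 19 and 36 in introns, 16 and 28 in 5′ UTRs and 1 and 10 in 3′ UTRs. The first TC of the gene was called higher too for 189 of the 250 internal TCs higher in wt, and for 165 of the 195 in coding exons, but for 9 of the 22 in introns and 6 of the 22 in 5′ UTRs. The median log2 change of the 250 was 2.24, and that of their first TCs 1.83. Of the 96 that were lower in wt, the first TC was called lower for 8 (8.33%). Of all first TCs, 11.3% were called higher and 3.27% lower in wt. Without the third wt library at 30 min, 159 were higher and 32 lower in coding exons, 20 and 18 in introns and 18 and 20 in 5′ UTRs, and the first TC was called higher for 159 of the 206 internal TCs that were higher and for 137 of the 159 in coding exons. In hen2-4 the first TC was called in the same direction for 155 of 208 that were higher and 24 of 212 that were lower (11.3%). There, 9.59% of all first TCs were called higher and 5.62% lower. Internal rises in coding exons thus mostly went with a rise of the first TC. Internal falls mostly did not go with a called fall of it, though such a fall was more frequent there than among all first TCs.

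**Figure D3:**
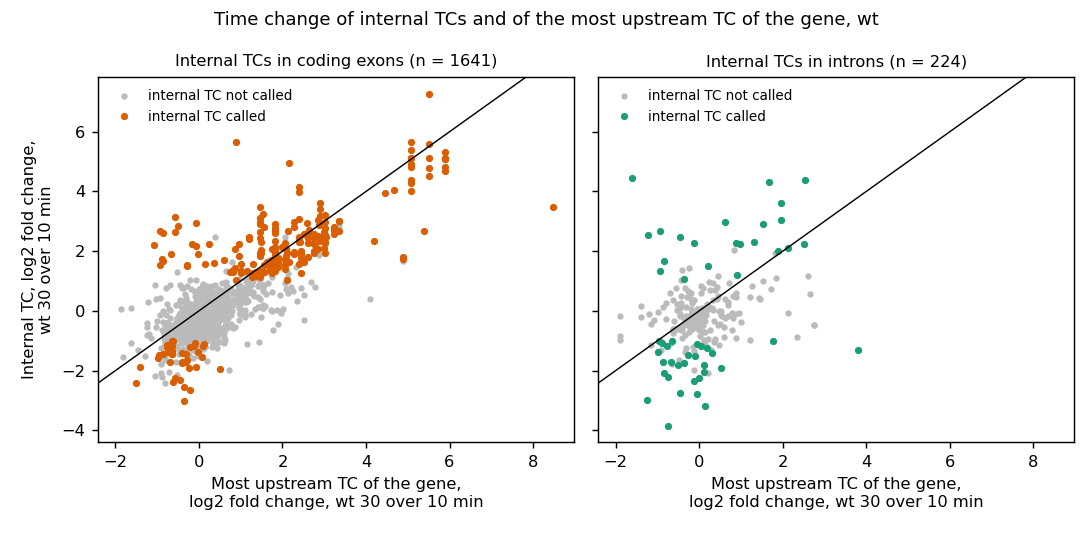
Log2 fold change between 30 and 10 min in wt of each internal TC (vertical axis) against that of the first TC of its gene (horizontal axis), in coding exons (left) and introns (right), with called internal TCs in colour and the line of equal change in black. The first TC was called higher too for 165 of the 195 called rises in coding exons and for 9 of the 22 in introns.

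The largest rises named with time included TCs of HSP90.1, AT5G48570 and HSP70, and the first TC of each of these genes was called higher too. HSP90.1, a chaperone, had an internal TC in a coding exon (chr5:21353220-21353325, plus strand) at 2.7, 3.31 and 4.27 CPM at 30 min against 0.040, 0 and 0 CPM at 10 min in wt (adjusted p = 2.2e-07), and at 3.33, 2.11 and 2.67 CPM against 0.119, 0.0481 and 0.091 CPM in hen2-4 (adjusted p = 2.1e-06). Its first TC stood at 1858 ± 599 CPM at 30 min against 40.8 ± 17.8 CPM at 10 min in wt. A second TC upstream of it (chr5:21353003-21353050, plus strand) had 0 tags in hen2-4 at 10 min, where 3 tags in each library are a group mean of 0.153 CPM, and 1.46, 1.44 and 0.801 CPM at 30 min, at least 8.07-fold higher (adjusted p = 6.4e-05, edgeR). The authors removed low clusters, so this upstream TC entered only through libraries other than those of hen2-4 at 10 min. Its rise is therefore partly set by that filter, and the same can hold for other TCs near 0 at 10 min. The internal tags were a very small part of the gene, 0.182 ± 0.0715% at the downstream TC in wt at 30 min.

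AT5G48570, a peptidyl-prolyl isomerase of the FKBP type, held 3 TCs named by the rule in coding exons. The middle one (chr5:19692211-19692296, minus strand) stood at 3.06, 3.09 and 4.33 CPM at 30 min against 0.040, 0.137 and 0 CPM at 10 min in wt (adjusted p = 1.4e-05). The most upstream of the 3 (chr5:19692489-19692505, minus strand) stood at 11.8, 10.3 and 15.9 CPM against 0.36, 0.364 and 0.129 CPM (log2 5.37 ± 0.65, adjusted p = 1.9e-05), and its share of the gene's tags was 3.48 ± 0.667% at 30 min and 2.56 ± 1.3% at 10 min. The most downstream (chr5:19691539-19691638, minus strand) had 0 tags in hen2-4 at 10 min and was at least 8.27-fold higher at 30 min (adjusted p = 5.0e-05). This most downstream TC also passed the authors' removal of low clusters only through other libraries, so its rise is partly set by that filter. The first TC of AT5G48570 stood at 353 ± 166 CPM at 30 min against 10.4 ± 0.821 CPM at 10 min in wt (adjusted p = 1.4e-07, edgeR). HSP70 had a TC (chr3:3992143-3992408, minus strand) at 13.2, 10.9 and 5.96 CPM at 30 min against 0.0593, 0.385 and 0.318 CPM at 10 min in hen2-4 (log2 5.20 ± 0.49, adjusted p = 2.0e-06), and its first TC stood at 2276 ± 578 CPM against 58.5 ± 4.2 CPM. Only reads that map once were counted, so tags from stretches shared by related chaperone genes are missing from these levels. CCR2, an enzyme of lignin synthesis, had a TC in its 3′ UTR (chr1:30371891-30371913, plus strand) at 2.4, 1.53 and 2.36 CPM at 30 min against 0, 0 and 0.091 CPM at 10 min in hen2-4 (adjusted p = 7.1e-05), with the first TC at 160 ± 14.4 CPM against 21.1 ± 1.51 CPM.

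The use of 38 internal TCs was called higher at 30 min in wt (1.66%, against 2.29% of all TCs tested) and of 41 lower (1.79%, against 2.36%), and in hen2-4 of 55 higher (2.40%, against 3.14%) and 72 lower (3.14%, against 2.95%). The total in wt was 50, 51 and 50 without wt replicates 1, 2 and 3 at 10 min and 70 without wt replicate 3 at 30 min. The total in hen2-4 was 64 and 52 without hen2-4 replicates 1 and 2 at 10 min and 80 and 61 without replicates 1 and 3 at 30 min.

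A gain of use was called in GH3.9, named after the enzymes that join auxin to amino acids, where the intronic TC (chr2:19560863-19560889, minus strand) held most of the gene's tags at 30 min. It stood at 4.52, 3.59 and 4.94 CPM at 30 min against 0.16, 0.273 and 0.129 CPM at 10 min in wt (log2 4.46 ± 0.34, adjusted p = 1.9e-07), and at 4.19, 3.55 and 4.99 CPM against 0.119, 0.144 and 0.0455 CPM in hen2-4 (adjusted p = 1.4e-07). Its share of the gene's tags was 75.5 ± 2.72% at 30 min against 5.81 ± 0.395% at 10 min in wt, and 75.7 ± 7.72% against 3.92 ± 2.93% in hen2-4. No 30 min library overlapped a 10 min library, which in hen2-4 was a condition for naming this TC. The use was called higher in wt (adjusted p = 1.1e-06) and in hen2-4 (adjusted p = 3.0e-06, diffSplice), and the calls held without any 1 library. The first TC stood at 0.128 ± 0.0339 CPM against 0.387 ± 0.236 CPM in wt (adjusted p = 0.0568) and at 0.445 ± 0.115 CPM against 1.41 ± 0.279 CPM in hen2-4 (adjusted p = 0.012). At most 3 tags per library were counted at the first TC in wt at 30 min and at the internal TC in hen2-4 at 10 min, so no log2 value of use is given. GH3.9 had 3 TCs, so the first TC was not its only other start. The share and the test of use also take in the third, whose level is not given. In rrp4-2 at 30 min the internal TC stood at 4.98, 7.02 and 5.55 CPM and held 74.5 ± 6.16%. The internal TC, whose sequence is shown above, left 15.4% of the annotated codons.

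CDF1, a DOF repressor of flowering, had a pair of intronic TCs that moved in opposite directions. The downstream one (chr5:25070129-25070207, minus strand) stood at 3.95, 4.61 and 6.1 CPM at 30 min against 1.72, 1.59 and 1.23 CPM at 10 min in wt (log2 1.67 ± 0.29, adjusted p = 0.000559), and at 3.66, 5.12 and 5.96 CPM against 2.61, 1.59 and 1.55 CPM in hen2-4 (log2 1.37 ± 0.28, adjusted p = 0.00276). The upstream one (chr5:25070278-25070340, minus strand) stood at 0.104, 0.225 and 0.333 CPM against 0.881, 1.23 and 0.712 CPM in wt (log2 -2.08 ± 0.45, adjusted p = 0.00344). The share of the downstream TC was 64.1 ± 2.94% at 30 min against 21.8 ± 3.32% at 10 min in wt (use log2 2.71 ± 0.41, adjusted p = 2.1e-05, diffSplice), and that of the upstream TC 2.74 ± 0.85% against 13.2 ± 0.943%. In rrp4-2 at 30 min the downstream TC was lower than in wt, at 1.98, 2.22 and 2.8 CPM (log2 -1.06 ± 0.28, adjusted p = 0.0213), a call lost in 3 of 15 cases and with library sizes alone.

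In HSFA7A, a heat shock factor, the intronic TC (chr3:19265942-19266109, plus strand) held most tags at 10 min and the first TC most at 30 min. The internal share was 28.4 ± 13.8% at 30 min against 92.5 ± 4.41% at 10 min in wt, and 29.6 ± 6.53% against 82.8 ± 8.03% in hen2-4. The use was lower by log2 -5.17 ± 0.71, adjusted p = 1.4e-05 in wt and -3.60 ± 0.57, adjusted p = 0.000107 in hen2-4 (diffSplice). The first TC stood at 5.5 ± 2.2 CPM at 30 min against 0.393 ± 0.196 CPM at 10 min in wt, and the internal TC at 2.7, 2.13 and 1.16 CPM against 4.73, 4.14 and 6.02 CPM (log2 -1.30 ± 0.40, adjusted p = 0.033), a fall whose call was lost in 4 of 15 cases. AT5G56960, a bHLH transcription factor gene, had a TC in a coding exon (chr5:23040382-23040401, minus strand) that rose, at 4.83, 6.91 and 6.77 CPM at 30 min against 0.36, 1.05 and 0.194 CPM at 10 min in wt (log2 3.47 ± 0.42, adjusted p = 2.2e-05). Its share was 44.7 ± 12.1% at 30 min against 98.6 ± 2.41% at 10 min, and the first TC stood at 7.88 ± 2.58 CPM against 0.0152 ± 0.0263 CPM.

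**Figure D4:**
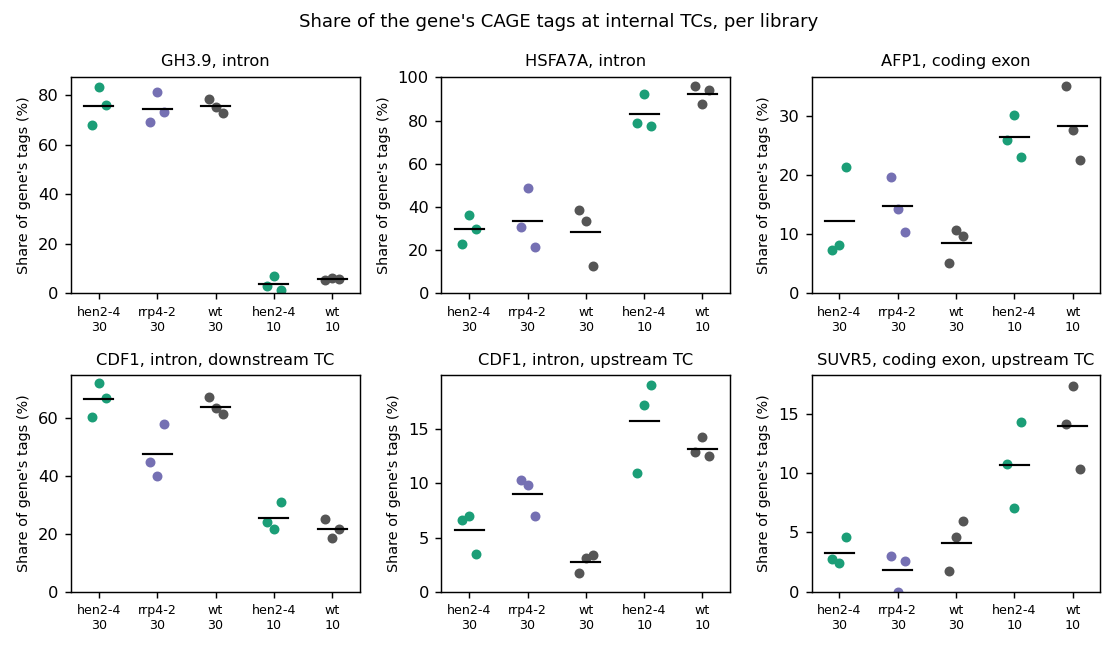
Share of the gene's CAGE tags at an internal TC, per library (points) and group mean (lines), in GH3.9, HSFA7A, AFP1, CDF1 (both intronic TCs) and SUVR5 (upstream TC), with genotype and min after flg22 below each group. The share in GH3.9 averages 75.7%, 74.5% and 75.5% in hen2-4, rrp4-2 and wt at 30 min and 3.92% and 5.81% in hen2-4 and wt at 10 min, and in HSFA7A the order of the times is turned round.

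Other internal TCs rose with time apart from, or less than, the first TC. WRKY72, a transcription factor of plant defence, had a TC in a coding exon (chr5:4905345-4905359, plus strand) at 1.04, 0.786 and 1.55 CPM at 30 min against 0, 0.0455 and 0 CPM at 10 min in wt (adjusted p = 0.000196), while its first TC changed by log2 0.88 (adjusted p = 0.0038). BME3, a GATA factor of seed germination also known as GATA8, had a TC in its 5′ UTR (chr3:20296842-20297041, plus strand) at 23.4, 26.8 and 19.3 CPM at 30 min against 6.93, 7.01 and 9.71 CPM at 10 min in wt (log2 1.56 ± 0.20, adjusted p = 2.9e-05), and at 23.9, 21.6 and 22.5 CPM against 9.96, 10.7 and 7.1 CPM in hen2-4 (log2 1.29 ± 0.19, adjusted p = 0.000203). Its first TC was not called, at 39 ± 9.68 CPM at 30 min and 36 ± 11.5 CPM at 10 min in hen2-4. CRK20, a receptor-like kinase, rose at its internal TC by log2 2.68 ± 0.51, adjusted p = 0.00143, and at its first TC by 5.39 (adjusted p = 3.1e-07) in wt, but the lower use was lost in 12 of 15 cases. AT1G11320, a GDSL lipase gene, gained use in hen2-4, where the share was 43.6 ± 4.09% at 30 min and 8.23 ± 12.6% at 10 min (log2 3.94 ± 0.93, adjusted p = 0.00909, diffSplice), a call lost in 2 of 15 cases.

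Among the falls with time, FAD5, AFP1 and SUVR5 fell at the internal TC while the first TC was not called. In FAD5 the intronic TC stood at 0.104, 0.337 and 0.0555 CPM at 30 min against 1.36, 1.23 and 0.906 CPM at 10 min in wt (log2 -2.80 ± 0.48, adjusted p = 0.000542), and at 1.26, 0.764 and 0.935 CPM against 3.67, 4.24 and 2.41 CPM in hen2-4 (log2 -1.81 ± 0.36, adjusted p = 0.00232). AFP1, a negative regulator of abscisic acid signalling, had a TC in a coding exon (chr1:26040180-26040238, plus strand) at 0.415, 0.562 and 0.166 CPM at 30 min against 2.76, 2.46 and 2.01 CPM at 10 min in wt (log2 -2.65 ± 0.43, adjusted p = 0.000386). In hen2-4 it stood at 0.266, 0.494 and 0.935 CPM against 2.19, 2.98 and 2.14 CPM (log2 -2.05 ± 0.41, adjusted p = 0.00221). Its share was 8.51 ± 3.0% at 30 min and 28.3 ± 6.32% at 10 min in wt, but the change of use was not called (log2 -2.05 ± 0.73, adjusted p = 0.113, diffSplice).

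SUVR5, a histone methyltransferase, had a pair of TCs in a coding exon. The upstream one (chr2:10101192-10101210, plus strand) stood at 0.156, 0.225 and 0.388 CPM at 30 min against 1.16, 2.23 and 1.16 CPM at 10 min in wt (log2 -2.55 ± 0.58, adjusted p = 0.0052), and at 0.133, 0.135 and 0.178 CPM against 0.948, 0.77 and 1.55 CPM in hen2-4 (log2 -2.81 ± 0.63, adjusted p = 0.00489). The downstream one (chr2:10101238-10101299, plus strand) stood at 0.0519, 0.112 and 0.166 CPM against 0.481, 1.18 and 1.16 CPM in wt (adjusted p = 0.00276), and in hen2-4, where it was not called, at 0.399, 0.27 and 0.267 CPM against 0.237, 0.963 and 0.682 CPM. ATIM, high in rrp4-2, fell with time in wt (log2 -1.82 ± 0.41, adjusted p = 0.00518) and in hen2-4 (log2 -1.61 ± 0.37, adjusted p = 0.00591).

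In 3′ UTRs, falls with time were called in hen2-4 at AT5G44060, JMJD5 and AT2G30766. The TC of AT5G44060 stood at 0.20, 0.0899 and 0.356 CPM at 30 min against 5.1, 2.41 and 1.77 CPM at 10 min in hen2-4 (log2 -3.79 ± 0.61, adjusted p = 0.000642), while its first TC rose by log2 1.42 (adjusted p = 0.00254). JMJD5, a jumonji-type oxygenase, had a TC (chr3:7277553-7277591, plus strand) at 0.333, 0.0899 and 0.089 CPM against 2.43, 1.78 and 0.773 CPM in hen2-4 (log2 -3.35 ± 0.83, adjusted p = 0.00922), while its first TC rose by log2 1.31 (adjusted p = 0.000173). That of the uncharacterized AT2G30766 (chr2:13108705-13108771, plus strand) stood at 0.0519, 0.0562 and 0 CPM at 30 min against 1.8, 1.78 and 2.52 CPM at 10 min in wt (adjusted p = 7.2e-05), and at 0.532, 0.404 and 0.534 CPM against 4.8, 3.47 and 2.05 CPM in hen2-4 (log2 -2.80 ± 0.51, adjusted p = 0.0012). In the 5′ UTR of AT1G70790, a lipid-binding protein gene, the TC stood at 0.133, 0.0899 and 0.089 CPM at 30 min against 1.72, 1.49 and 0.955 CPM at 10 min in hen2-4 (adjusted p = 0.000281). Of the further genes that the study named for alternative starts, PUS5, HSP70b and BAG6 had near TCs but no internal one, and MEKK1 had a single TC.

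Of the groups of host genes, kinase genes held the most internal TCs. Between 30 and 10 min, 8.25% of all TCs and 10.9% of internal TCs were higher in wt and 4.36% and 4.18% lower, and 7.29% and 9.07% were higher and 6.32% and 9.24% lower in hen2-4. Of 122 internal TCs in kinase genes, 32 were higher (26.2%) and 3 lower (2.46%) in wt, and 21 (17.2%) and 12 (9.84%) in hen2-4. Of 55 tested in genes of transcription regulators, wt had 15 higher (27.3%) and 3 lower (5.45%), and hen2-4 had 16 (29.1%) and 5 (9.09%). Of 35 in transporter genes, wt had 12 (34.3%) and 3 (8.57%) and hen2-4 had 11 (31.4%) and 4 (11.4%). The shares higher in these 3 groups lay above those of all TCs and of internal TCs, and the difference was not tested. In genes of chromatin proteins, 0 of 43 were higher and 3 lower (6.98%) in each genotype. In those of RNA-binding proteins and helicases, 1 of 39 was higher in wt (2.56%) and 2 were lower in hen2-4 (5.13%). In F-box and ubiquitin ligase genes 0 of 21 were higher, with 2 lower in wt (9.52%) and 4 in hen2-4 (19%). In immune receptor genes 0 of 12 were higher, with 1 lower in wt (8.33%) and 3 in hen2-4 (25%). In the mutant comparisons each of these groups had at most 5 calls higher. In rrp4-2 the shares higher were 16.7% for immune receptors, 9.52% for F-box and ubiquitin ligase genes and 9.09% for transcription regulators. They were 8.57% for transporters, 2.33% for chromatin proteins, 0.820% for kinases and 0% for RNA-binding proteins and helicases. Internal TCs gave 4.27% and all TCs 6.59%. In hen2-4 the shares ranged over 0.820% to 8.57% at 10 min and 0% to 8.33% at 30 min. These groups were formed from product names in the annotation, and their counts are descriptions.

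The time change was compared between hen2-4 and wt directly. Of the 2294 internal TCs, edgeR called 0 for a different time change, where 0.00377% of all TCs were called with a larger change in hen2-4 and 0% with a smaller one. At an unadjusted p under 0.05 there were 123 internal TCs, against 1505 of all 26504, and DESeq2 called 1 of 1714. The differences between the counts of hen2-4 and wt above are therefore not shown to be differences between the genotypes.

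The limit of 500 bp separated TCs of like level, while their median share and their calls in rrp4-2 differed. The authors' removal of low clusters bounds the level on both sides from below. The 120 TCs at 450 to 500 bp had a median of 1.15 CPM and a median share of 2.11%, and 2, 0 and 0 of them were called higher in hen2-4 at 10 min, hen2-4 at 30 min and rrp4-2. The 136 just beyond it, over 500 to 550 bp, had 1.13 CPM and 0.992%, with 2, 0 and 5 called higher.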

How the data were processed

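The authors mapped CAGE reads to the TAIR10 genome with Bowtie 1.1.2, counted the 5′ ends of uniquely mapped reads, clustered them with CAGEfightR and removed low clusters. The deposited tables hold raw counts per TC and per gene. In each, 9 further columns matched no labelled sample and were not used, nor were the deposited TPM tables. The internal TCs, gene lists and tests were chosen with earlier results of these data known.

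TCs were linked to genes from the counts, and positions were read against TAIR10.1. Levels were tested with edgeR 4.0.16 (TMM, quasi-likelihood, 1 coefficient per group over 15 libraries, Benjamini-Hochberg adjustment over 26504 TCs that passed filterByExpr, which removed 16 internal TCs). The test of use took voom weights and diffSplice from limma 3.58.1. Fold changes are fitted log2 values ± SE. Alternatives used DESeq2 1.42.0, R 4.3.3 and Python 3.11.15, and the fits were tested on simulated data. Replicates are separate pools of seedlings grown and treated at the same time, so p-values measure the spread between such pools.

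Named TCs were, per comparison with wt and per time comparison, the called ones with at least 1 CPM in the higher group and no overlap of libraries with the 5 largest rises and 3 largest falls (3 and 3 between mutants), the 2 largest changes of use each way, the 5 highest shares in genes of at least 10 CPM, and all in genes the study named for alternative starts. Against a group with at most 3 tags in every library, levels or a lower bound are given, and for use no log2 value where the internal or first TC was so low. A call was said to hold without any 1 library when it was kept in each of 15 fits that left out 1. The 95% binomial interval of a library's share of internal tags was at most 0.0173 percentage points wide and, like the floors, covers counting error only.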

Additional observations from a re-analysis of the deposited data

How the results depend on the processing

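No internal TC named in the text changed direction under any alternative. Of 2251 values of level, 2098 kept their call and 153 lost it, and of 1042 values of use, 857 kept it and 185 lost it. With only the groups compared in the fit, the calls were 31 in hen2-4 at 30 min (14 higher in introns), 62 in rrp4-2 against wt (27 higher in introns) and 18 between rrp4-2 and hen2-4. DESeq2 called 16 between the mutants and 1 for the difference of time changes. Among internal TCs that reached a share of 10% in 3 libraries, the percent called was 8.81 in hen2-4 at 10 min, 7.34 in hen2-4 at 30 min, 12.8 in rrp4-2 and 0.917 between the mutants, and 76 changes of use with time were called in hen2-4. The share of library tags over 300 bp, over 1000 bp and over 500 bp without the top TC was 2.34%, 0.671% and 1.05% in hen2-4, 2.74%, 0.814% and 1.26% in rrp4-2 and 2.38%, 0.665% and 1.05% in wt at 30 min, and 2.53%, 0.703% and 1.13% in hen2-4 and 2.5%, 0.679% and 1.1% in wt at 10 min. An annotated start lay within 50 bp of 1.95% and within 200 bp of 5.35%. Fewer samples or members enter the fits of compared groups, the 10% rule and the distances by construction. For DESeq2 the cause was not tested.

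Without 1 library at a time, the calls ranged over 47 to 89 (use 12 to 63) in hen2-4 at 10 min, 44 to 63 (12 to 27) in hen2-4 at 30 min, 82 to 119 (36 to 53) in rrp4-2, 0 to 13 (1 to 7) between the mutants, 274 to 349 (50 to 82) with time in wt, 261 to 448 (52 to 152) with time in hen2-4 and 0 to 0 for the difference of time changes. Higher calls in introns ranged over 20 to 41, 18 to 26 and 33 to 44 in the order of the mutant comparisons, and in coding exons with time over 151 to 200 in wt and 138 to 175 in hen2-4. The alternatives by position were chosen after seeing the data.

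Replicate numbers did not pair the samples. Deviations from the group means correlated with r of −0.38 to 0.39 (median 0.01) for equal numbers, and with a median of 0.03 for different numbers. With the number as a block, 69 internal TCs were called in hen2-4 at 10 min, 55 in hen2-4 at 30 min, 109 in rrp4-2, 5 between the mutants, 332 with time in wt, 394 in hen2-4 and 0 for their difference. Use gave 49, 28, 58, 4, 83 and 113 with the block.

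Depth limits the weakest members: 3 tags in a wt library, the limit that 0 tags allow, are 0.156 to 0.168 CPM at 30 min and 0.120 to 0.194 CPM at 10 min.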
